A study of Mus musculus with 12 samples.

Results

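The genes described here encode the proteasome, the protease complex that degrades ubiquitin-tagged proteins, measured as messenger RNA in mouse liver. They were taken by symbol: every gene of the deposited count table whose symbol begins with Psm, one of the letters a to g and a digit, except Psmb8, Psmb9 and Psmb10, which encode the inducible subunits of the immunoproteasome and are given beside them. The rule found 48 of the table's 15140 genes, and no measured value entered it. Of these, 45 have a role in the complex: 15 encode the 20S core (8 alpha-type and 7 beta-type genes), 17 the 19S cap, 7 assembly chaperones, 5 activators and 1 an inhibitor. The other 3 matched by name only. Psma5-ps is a pseudogene of Psma5, and Psmc3ip and Psme3ip1 are named for proteins that bind a subunit or an activator. All 48 passed the filter on low counts.

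RNA was extracted with Trizol from the livers of male mice and sequenced after polyA selection, as 6 libraries of mice lacking prohibitin 1 in adipocytes (Phb1adipo-/-, KO below) and 6 of wild-type mice (WT). Both groups were 7 to 8 weeks old when a high-fat diet with 60 kcal% fat began, and both ate it for 3 months, so no group on another diet bears on these values. The promoter that drives the deletion is not given in the sources used here. The labels do not state which animal each library came from, and a p-value here speaks only of how much the 12 libraries vary. The deletion was made in fat cells and the RNA is from liver, so Phb, the targeted gene, does not check the labels here: it ranged from 88.6 to 100.4 CPM (counts scaled to a common library size) in KO and from 80.0 to 91.2 CPM in WT liver. Library totals ran from 30348123 to 40828767 counts. The hepatocyte markers had summed levels of 73016 to 97668 CPM in KO and 69380 to 100612 CPM in WT. Because the tissue was measured in bulk, fewer cells of a type and less RNA per cell cannot be told apart.

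The 20S core is a barrel of stacked rings. The outer rings are built from alpha subunits and gate the entry, and the inner rings from beta subunits, among which Psmb5, Psmb6 and Psmb7 encode the catalytic beta5, beta1 and beta2. The 19S cap binds ubiquitin chains, removes them and, with a ring of ATPases, unfolds the substrate and feeds it into the core. In interferon-exposed cells the catalytic subunits are replaced by those encoded by Psmb8 (for Psmb5), Psmb9 (for Psmb6) and Psmb10 (for Psmb7). Transcription of core and cap genes is known to be raised together by NRF1 (Nfe2l1) when proteasome activity falls, through antioxidant response elements in their promoters.

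The promoters of the catalytic genes Psmb5 and Psmb6 and of the inducible gene Psmb10 are shown, since catalytic and inducible genes had differences of opposite sign below. Psmb10 replaces neither of the 2 catalytic genes shown, and Psmb7 had no entry in the promoter table. Each runs 5′ to 3′ over the 250 bases before the RefSeq start on the gene's own strand (GRCm38.p6). They are Psmb5 at chr14:54617996-54618245 on the minus strand, Psmb6 at chr11:70525107-70525356 on the plus strand and Psmb10 at chr8:105938393-105938642 on the minus strand. Capitals mark a match to TGACNNNGC, one form of the antioxidant response element.
Psmb5: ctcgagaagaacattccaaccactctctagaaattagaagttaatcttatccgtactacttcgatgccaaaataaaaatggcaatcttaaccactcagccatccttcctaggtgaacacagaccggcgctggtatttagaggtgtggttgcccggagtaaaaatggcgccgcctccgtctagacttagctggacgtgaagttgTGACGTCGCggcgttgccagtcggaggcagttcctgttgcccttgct
Psmb6: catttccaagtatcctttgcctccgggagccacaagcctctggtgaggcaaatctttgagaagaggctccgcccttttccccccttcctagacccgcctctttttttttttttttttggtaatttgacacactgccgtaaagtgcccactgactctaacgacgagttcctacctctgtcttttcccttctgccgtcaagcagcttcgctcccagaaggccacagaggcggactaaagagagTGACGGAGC
Psmb10: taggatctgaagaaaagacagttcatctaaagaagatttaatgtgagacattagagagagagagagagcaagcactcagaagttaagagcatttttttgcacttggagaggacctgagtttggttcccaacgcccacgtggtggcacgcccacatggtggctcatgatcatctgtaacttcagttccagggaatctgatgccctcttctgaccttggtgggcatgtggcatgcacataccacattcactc

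The Psmb5 match, TGACGTCGC, lies 47 to 39 bases before the start, and the Psmb6 match, TGACGGAGC, 9 to 1 bases before it. The Psmb10 window holds no match. Promoters of 39 of the 48 members were in the RefSeq table, 25 of them of core or cap genes with 27 windows. On either strand, TGACNNNGC was found in 4 of these 27 windows (14.8%), against 3323 of all 32544 windows (10.2%). The other 2 genes with a match were Psmc6, where TGACTTAGC lies on the opposite strand 227 to 219 bases before the start, and Psmd12, where TGACACAGC lies on the opposite strand 247 to 239 bases before it. The 4 genes with a match had log2 fold changes of 0.29 (Psmb5), 0.25 (Psmb6), 0.23 (Psmd12) and 0.07 (Psmc6). Core and cap genes whose windows had no match ran from 0.02 (Psma4) to 0.33 (Psmd14). Whether a match goes with the difference between KO and WT was not tested. The related form TGAGNNNGC was found in 8 of the 27 windows (29.6%), against 14.5% of all windows, and GAAA repeated after any 2 bases, the heart of the interferon-stimulated response element, in 2 of 27 (7.41%), against 2.98%. No member window holds both antioxidant forms in overlapping positions, and the 3 windows of the immunoproteasome genes hold none of the 3 motifs. A match describes these letters in this window, and no match says nothing about the factor.

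All 32 core and cap genes had a positive log2 fold change, against 50.5% of the 15000 genes tested, and their median was 0.18, against 0.00 over all genes. With Benjamini-Hochberg adjustment over all genes at 0.05, edgeR's quasi-likelihood test called only 2 of the 48 members, Psmb5 and Psma8, both higher in KO (4.17%), where the share of all genes called was 2.64% in either direction and 1.15% higher in KO. At an unadjusted p under 0.05, 20 of the 32 core and cap genes were higher in KO (62.5%), against 10.7% of all genes, and none was lower. The genes were measured in the same libraries and moved together from library to library, so these counts are not independent of each other. In the authors' deposited table, Psma8 was the 1 member with an adjusted p under the threshold, where the background was 2.6% higher in KO.

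**Figure D1:**
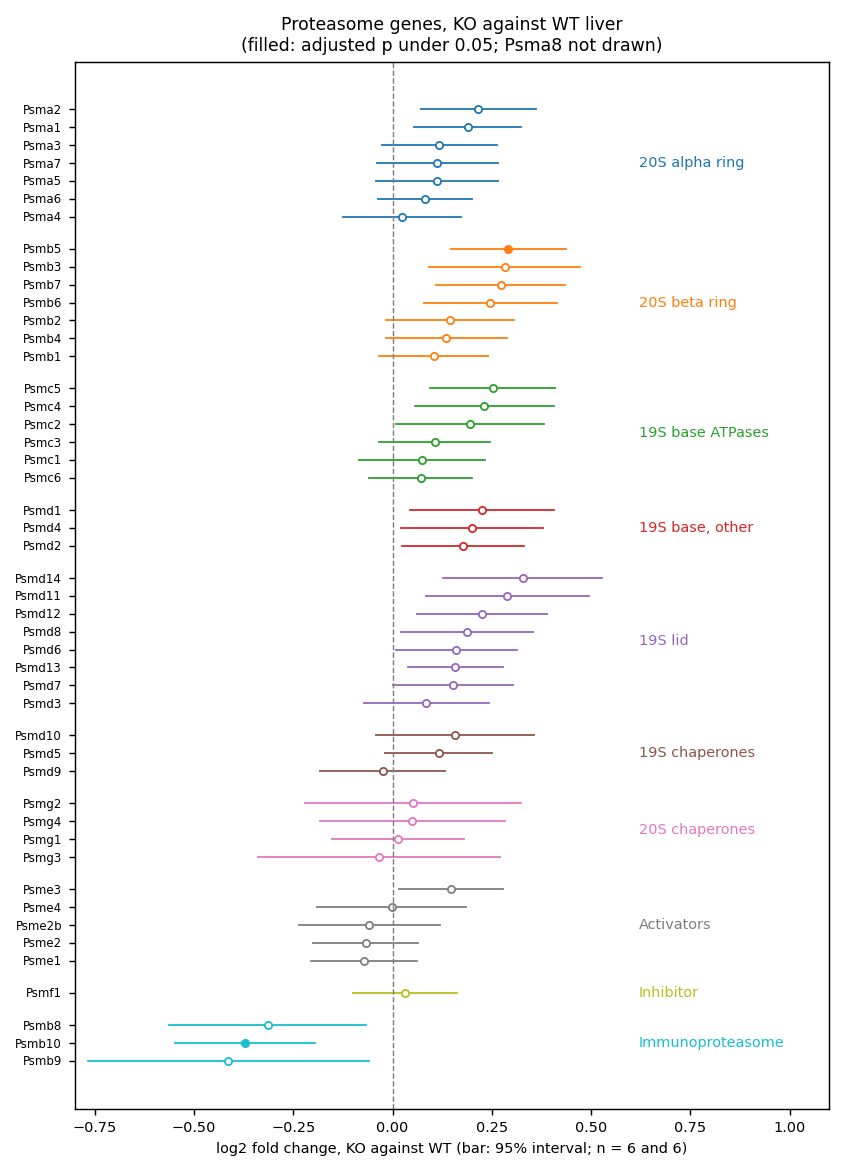
Log2 fold change of KO against WT (x axis) for the subunit, chaperone, activator, inhibitor and immunoproteasome genes, by role. Points are edgeR estimates from 6 and 6 libraries, bars their 95% intervals, and filled points have an adjusted p under 0.05. All drawn core and cap points lie right of 0, the activators and chaperones lie around 0, and the 3 immunoproteasome genes lie left of it. Psma8 is not drawn.

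Of the 2 called genes, Psmb5 was the one whose groups did not overlap, and Psma8, described after it, had the smaller adjusted p. Psmb5, which encodes the chymotrypsin-like beta5 subunit, was measured at 45.2, 51.6, 53.1, 53.1, 49.4 and 53.1 CPM in KO libraries 1 to 6. In WT libraries 1 to 6 it was at 42.5, 41.8, 44.9, 36.2, 39.3 and 44.9 CPM. The groups did not overlap, with WT 4 and WT 5 lowest. Psmb5 rose by a log2 fold change of 0.29 ± 0.07 (SE), or 1.22-fold (edgeR adjusted p = 0.0383). The call rests on few libraries: with any 1 of KO 2 to KO 6 or WT 1, 2, 4 or 5 left out, the adjusted p was 0.0551 to 0.0896. With WT libraries 4 and 5 both left out, the log2 fold change was 0.23 and the adjusted p 0.220, and in the authors' deposited table the adjusted p was 0.412. DESeq2 run here on all 12 libraries, which called 8.47% of all genes, gave Psmb5 an adjusted p of 0.00309. The reason for the difference from the authors' value was not tested.

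The other 2 catalytic genes had similar differences without passing the test. Psmb7, which encodes the trypsin-like beta2, was at 72.0, 74.6, 79.2, 79.9, 73.2 and 78.4 CPM in KO and at 67.2, 59.8, 76.2, 55.3, 58.0 and 62.0 CPM in WT. WT 3 lay within the KO values, and the other 5 WT libraries lay below them. The log2 fold change was 0.27 ± 0.08 (edgeR adjusted p = 0.0695). Psmb6, which encodes the caspase-like beta1, was at 83.4, 96.3, 102.1, 93.7, 99.4 and 94.7 CPM in KO and at 83.5, 80.1, 91.4, 71.2, 68.5 and 85.5 CPM in WT, with KO 1 among the WT values. Its log2 fold change was 0.25 ± 0.08 (edgeR adjusted p = 0.101).

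The structural beta genes spanned 0.10 (Psmb1) to 0.28 ± 0.09 (Psmb3, edgeR adjusted p = 0.0961), and the median of all 7 beta genes was 0.25. The 8 alpha-type genes had a median of 0.11. Psma2 at 0.22 ± 0.07 and Psma1 at 0.19 ± 0.06 had the largest values of the alpha genes other than Psma8 (edgeR adjusted p of 0.0970 and 0.110). Psma4 had the smallest of the core, 0.02 with a 95% interval of -0.13 to 0.17, and its sign turned when KO 3, WT 4 or WT 5 was left out.

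Psma8, the testis-type alpha subunit, was by far the rarest core transcript. KO libraries 1 to 6 held 61, 29, 55, 36, 47 and 54 counts (1.70, 0.70, 1.69, 0.98, 1.27 and 1.59 CPM). WT libraries 1 to 6 held 9, 15, 19, 16, 29 and 5 counts (0.27, 0.38, 0.48, 0.43, 0.79 and 0.17 CPM). KO 2 lay below WT 5, and the other 5 KO libraries lay above every WT library. Psma8 rose by a log2 fold change of 1.64 ± 0.34, or 3.11-fold (edgeR adjusted p = 0.0267), and the authors' deposited table gave 1.65 with an adjusted p of 0.00270. It passed the filter's minimum of 0.276 CPM in 6 KO and 4 WT libraries. The adjusted p was 0.0646 without KO 6, 0.0670 without WT 2 and 0.0694 without WT 4, and the gene was not tested where 1 CPM in 6 libraries was required. With so few counts, a small number of reads belonging to another alpha gene would weigh on the level, and the extent of such sharing was not tested.

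**Figure D2:**
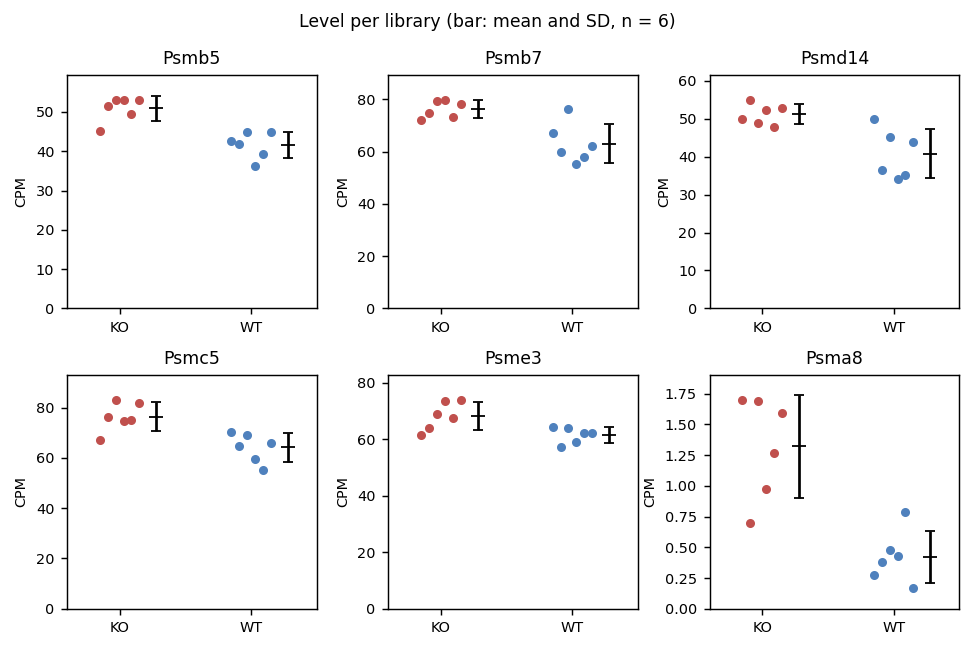
CPM (y axis, from 0) of 6 proteasome genes in each KO (red) and WT (blue) library, drawn in replicate order, with the mean and SD of 6 libraries as bars. For Psmb5 the KO points, 45.2 to 53.1 CPM, all lie above the WT points, 36.2 to 44.9 CPM, while the groups of the other 5 genes overlap.

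The 19S cap had no gene past the adjusted threshold, against 2.64% of all genes, and 13 of 17 at an unadjusted p under 0.05, all higher in KO (76.5%, against 10.7%). DESeq2 called 2 of the 17 (Psmc5 and Psmd14), where it called 8.47% of all genes. Psmd14 encodes the lid enzyme that cuts ubiquitin chains from the substrate, and had the largest difference of the cap. It was at 49.9, 55.0, 48.9, 52.1, 47.9 and 52.9 CPM in KO and at 49.9, 36.5, 45.2, 34.1, 35.1 and 43.8 CPM in WT. WT 1 lay among the KO values, and WT 2, 4 and 5 were lowest. The log2 fold change was 0.33 ± 0.09 (edgeR adjusted p = 0.0750).

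Psmc5 encodes an ATPase of the base. It was at 67.2, 76.3, 83.1, 74.9, 75.2 and 82.0 CPM in KO and at 70.3, 64.8, 69.2, 59.5, 55.3 and 66.1 CPM in WT, with KO 1 below WT 1 and WT 3. The log2 fold change was 0.25 ± 0.07 (edgeR adjusted p = 0.0788). By module, the median log2 fold change was 0.15 over the 6 ATPases, 0.20 over the other 3 base genes (the scaffolds Psmd1 and Psmd2 and the ubiquitin receptor Psmd4) and 0.17 over the 8 lid genes, 7 of which had an unadjusted p under 0.05.

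Among the lid scaffold genes, Psmd11 was at 0.29 ± 0.10 and Psmd12 at 0.23 ± 0.08 (edgeR adjusted p of 0.110 and 0.114). The smallest cap values were 0.07 for the ATPase genes Psmc6 and Psmc1 and 0.08 for the lid gene Psmd3. Psmd13, another lid gene, and Psmb5 were the 2 of 32 core and cap genes whose groups did not overlap (6.25%, against 1.29% of all genes with KO above WT). Psmd13 ranged from 60.8 to 68.0 CPM in KO and from 52.3 to 60.4 CPM in WT, with a log2 fold change of 0.16 ± 0.06 (edgeR adjusted p = 0.129). It overlaps Sirt3 on the opposite strand and Gm15542 on its own in GENCODE M21, and its level is uncertain to the extent that reads were shared. The same limit holds for Psmb7, which overlaps Nek6 on the opposite strand, and for Psma2, which overlaps AW209491 on its own strand, since the counting's strand setting is not given in the sources used here. It also holds for Psmc3, Psma3, Psma4, Psmd5, Psmd9, Psme1, Psmc3ip and Psme3ip1, which overlap other genes on the opposite strand.

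Within each group the levels also differed from library to library. Among the 31 core and cap genes other than Psma8, WT 5 was the lowest of the 12 libraries in 22, WT 4 in 8 and WT 2 in 1. WT 4 was among the 3 lowest libraries in all 31 genes, WT 5 in 29 and WT 2 in 25. The highest library was KO 3 in 11 genes, KO 6 in 10, KO 4 in 4, KO 2 in 3, WT 1 in 2 and KO 5 in 1. WT 1 was among the 3 highest in 8 genes and KO 1 in none. KO 1, WT 1, WT 3 and WT 6 had similar levels, with median log2 deviations from each gene's mean of -0.02, 0.05, 0.03 and -0.00. The deviation was -0.27 in WT 5, -0.18 in WT 4 and -0.14 in WT 2. In KO 2 to KO 6 it was 0.10, 0.12, 0.10, 0.07 and 0.16, each above every WT library. By this measure only KO 1 lay among the WT values.

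With WT 4 and WT 5 both left out, an alternative chosen after their values were seen, 30 of the 31 genes still had a positive log2 fold change, but the median fell to 0.10 from 0.18 and no member passed the test. The number of genes called over the whole table was then 6, against 396 with all libraries, 25 without WT 4 alone and 89 without WT 5 alone.

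**Figure D3:**
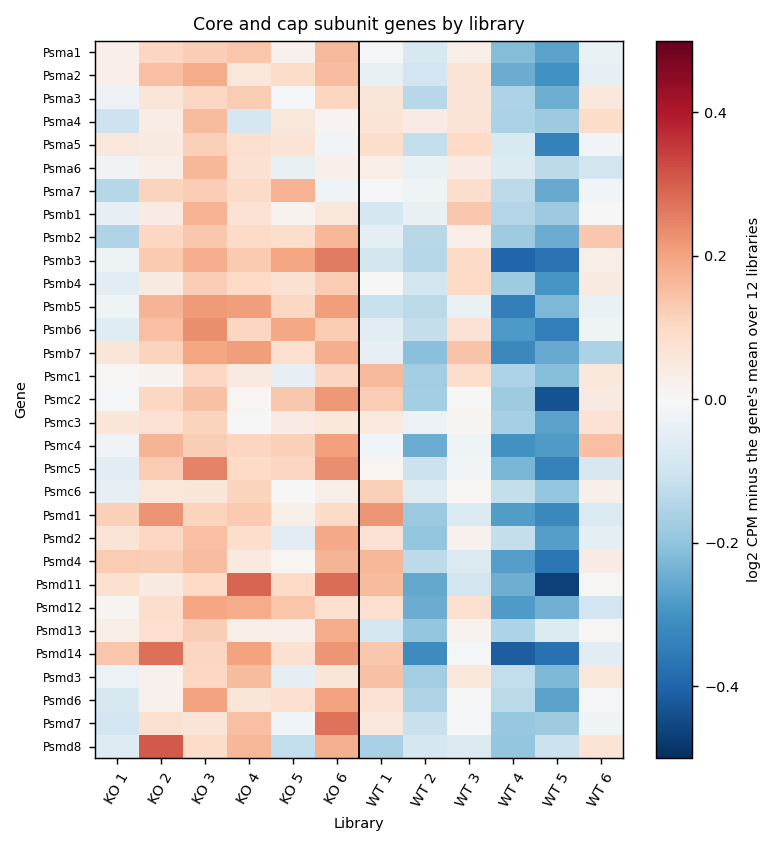
Log2 CPM minus the gene's mean over the 12 libraries (colour, red higher and blue lower) for the 31 core and cap genes other than Psma8 (rows) in each library (columns, the line separating KO from WT). WT 4, WT 5 and, less deeply, WT 2 are blue in nearly every row, while KO 1, WT 1, WT 3 and WT 6 are pale.

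Summed over their genes, core RNA came to 1060 to 1214 CPM in KO and 913 to 1147 CPM in WT, with means of 1152 ± 50.3 and 1033 ± 88.6 (SD, n = 6). Cap RNA came to 1555 to 1713 CPM in KO and 1271 to 1625 CPM in WT, with means of 1635 ± 64.4 and 1446 ± 139 (SD, n = 6). Both sums overlapped between the groups. Core over cap RNA gave 0.704 ± 0.0219 for KO and 0.715 ± 0.0326 for WT (SD, n = 6), closer than its spread. The spread itself differed: the coefficient of variation had a median of 5.17% over the 31 genes in KO and 9.58% in WT, and 28 of the 31 genes varied more among the WT libraries.

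Several measures stood beside this pattern. The 13 macrophage markers all had negative log2 fold changes and 3 were called lower in KO, against 1.49% of all genes. Their summed level was 218 to 422 CPM in KO and 367 to 582 CPM in WT, and the 3 highest sums were those of WT 2 (582), WT 5 (507) and WT 4 (487), the libraries with the lowest core and cap levels. KO 4 came next (422), above WT 1 (412), though its core and cap median log2 deviation was 0.10. Endothelial markers (6 of 6 negative, none called) summed to 123 to 174 CPM in KO and 141 to 198 CPM in WT, with WT 4, WT 5 and WT 2 again highest. Other lists had their highest sum in WT 6: 510 CPM for the 6 stellate cell markers, 26.3 CPM for the 4 neutrophil markers and 32.4 CPM for the 5 skeletal muscle markers, none of them called. Only 2 of the 6 stellate cell markers had a negative log2 fold change (median 0.08). All 4 neutrophil and all 5 skeletal muscle markers had one. For these lists WT 4 had 460, 25.6 and 18.4 CPM, WT 5 had 474, 22.5 and 17.9 CPM, and WT 2 had 320, 7.98 and 6.60 CPM. The highest KO sums were 389, 15.2 and 11.4 CPM. Of the 8 hepatocyte markers, 5 had a positive log2 fold change and 1 was called higher in KO, against 1.15% of all genes. Their median was 0.19, beside 0.18 for the core and cap genes, but their summed levels averaged 84386 CPM in KO and 84104 CPM in WT. The 5 cholangiocyte markers were all positive with none called (median 0.40), and summed to 44.1 to 133 CPM in KO and 35.9 to 99.2 CPM in WT. Of 6 lymphocyte markers in the table, 5 were tested, all negative with 1 called lower in KO, against 1.49% of all genes. The 6 summed to 5.21 to 15.02 CPM in KO and 8.15 to 19.1 CPM in WT, highest in WT 4. Of 5 adipocyte markers, Adipoq, Plin1 and Lep were not among the table's genes, and the other 2 summed to 4.07 to 104.0 CPM in KO and 7.64 to 42.3 CPM in WT. Transcripts of mitochondrial DNA made up 5.86% ± 0.354 of counts in KO libraries and 5.37% ± 0.225 in WT libraries (SD, n = 6). The part of these measures in the proteasome values was not tested.

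Of the 7 assembly chaperone genes, 5 had a positive log2 fold change, and the median was 0.05. None passed the adjusted threshold in edgeR or DESeq2, against 2.64% and 8.47% of all genes. None had an unadjusted p under 0.05 in edgeR, against 10.7% of all genes higher and 10.6% lower in KO. Assembly chaperones bring the rings and the base together and leave the finished complex. Psmd5, a base chaperone, was at 33.5, 32.4, 31.4, 34.1, 34.9 and 38.0 CPM in KO and at 35.0, 29.5, 31.0, 31.9, 29.5 and 31.5 CPM in WT. WT 1 exceeded 5 of the KO libraries. Its log2 fold change was 0.12 ± 0.06 (edgeR adjusted p = 0.308). Psmd10 (gankyrin), another base chaperone, was at 10.1, 13.4, 11.5, 9.43, 10.9 and 12.7 CPM in KO and at 9.39, 10.3, 9.83, 10.5, 10.02 and 10.9 CPM in WT, a log2 fold change of 0.16 ± 0.09 (edgeR adjusted p = 0.350). The groups overlapped. The core chaperone genes Psmg1 to Psmg4 lay between -0.04 and 0.05. Whether chaperones and subunits differ from each other was not tested.

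The activators dock on the core in place of the cap. Psme1 and Psme2 encode the interferon-inducible PA28 alpha and beta, Psme3 the nuclear PA28 gamma and Psme4 PA200. Of the 5 activator genes 1 had a positive log2 fold change. None passed the adjusted threshold in edgeR or DESeq2, against 2.64% and 8.47% of all genes. At an unadjusted p under 0.05 in edgeR there was 1 of 5 (against 10.7% of all genes higher in KO), Psme3, at 61.4, 63.9, 69.0, 73.5, 67.4 and 74.0 CPM in KO and at 64.5, 57.2, 64.1, 59.0, 62.4 and 62.2 CPM in WT. KO 1 and KO 2 lay among the WT values. Its log2 fold change was 0.15 ± 0.06 (edgeR adjusted p = 0.185).

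Psme1 was at 58.3, 63.2, 62.6, 62.4, 69.9 and 66.0 CPM in KO and at 66.7, 73.0, 67.0, 66.9, 69.2 and 59.0 CPM in WT. Psme2 was at 35.8, 41.0, 40.8, 36.8, 43.1 and 38.9 CPM in KO and at 38.9, 40.9, 45.5, 41.2, 41.3 and 40.0 CPM in WT. The groups overlapped for both, and both had a log2 fold change of -0.07 ± 0.06, with 95% intervals of -0.21 to 0.06 for Psme1 and -0.20 to 0.06 for Psme2 (edgeR adjusted p of 0.542 and 0.560). Psme4 was at -0.00 ± 0.09, Psme2b, a near copy of Psme2 that may share its reads, at -0.06 ± 0.08, and the inhibitor Psmf1 at 0.03 ± 0.06. Of the genes matched by name only, Psma5-ps was at 0.12 ± 0.11, Psme3ip1 at 0.12 ± 0.06 and Psmc3ip at 0.31 ± 0.41.

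The immunoproteasome genes lay on the other side of 0, all 3 at an unadjusted p under 0.05, against 10.6% of all genes lower in KO. Psmb10 fell, with a log2 fold change of -0.37 ± 0.08 (edgeR adjusted p = 0.0342, against 1.49% of all genes called lower). It was at 23.3, 26.6, 25.7, 25.5, 26.6 and 28.0 CPM in KO and at 30.9, 35.1, 38.2, 37.2, 32.5 and 27.4 CPM in WT. KO 6 lay above WT 6, and the other 5 KO libraries below all WT libraries. The groups of all 3 genes overlapped, where 1.24% of all genes had every KO library below every WT library. The log2 fold change was -0.31 ± 0.12 for Psmb8 and -0.41 ± 0.16 for Psmb9 (edgeR adjusted p of 0.142 and 0.173). With any 1 of KO 1, 2 or 6 or WT 2, 3, 4 or 5 left out, the adjusted p of Psmb10 was 0.0540 to 0.0887. With WT 4 and WT 5 both left out, Psmb10 was at -0.34 with an adjusted p of 0.184, and in the authors' deposited table its adjusted p was 0.346. DESeq2 run here on all 12 libraries, which called 8.47% of all genes, gave it an adjusted p of 0.00247.

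Each inducible gene was also set against the subunit it replaces. These ratios were taken after the values of both genes were seen, so they restate them and are given only as a description. The ratio of Psmb10 to Psmb7 CPM was 0.319 to 0.364 in KO and 0.441 to 0.673 in WT, without overlap, a difference of -0.64 between the mean log2 ratios. The ratio of Psmb8 to Psmb5 was 0.308 to 0.423 in KO and 0.377 to 0.691 in WT, a log2 difference of -0.60 with 4 of 6 KO libraries below every WT library. The ratio of Psmb9 to Psmb6 was 0.179 to 0.238 in KO and 0.206 to 0.544 in WT, a log2 difference of -0.63 with 1 of 6 KO libraries below every WT library. The 3 ratios come from the same libraries.

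**Figure D4:**
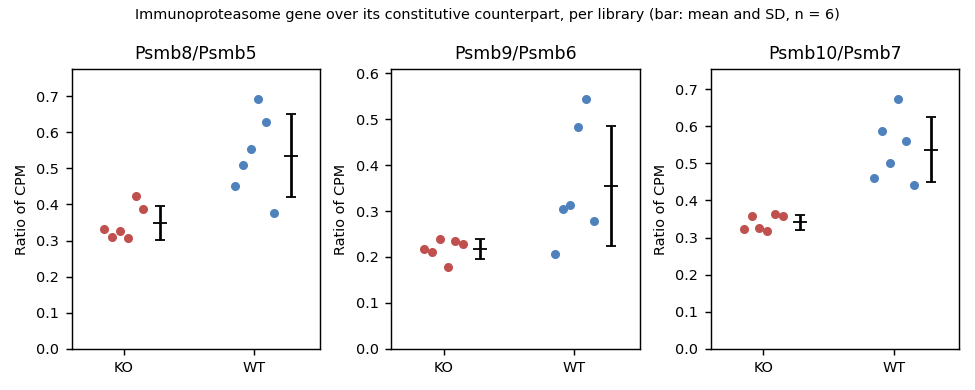
CPM of each immunoproteasome gene divided by that of the constitutive subunit gene it replaces (y axis, from 0) in each KO (red) and WT (blue) library, with mean and SD of 6 libraries as bars. The KO points of Psmb10 over Psmb7, 0.319 to 0.364, all lie below the WT points, 0.441 to 0.673, and the groups overlap in the other 2 panels.

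Markers bearing on these genes had the following values. Of 18 interferon-stimulated genes, 17 had a negative log2 fold change and 13 were called lower in KO (1.49% of all genes were). Their summed level was 1709 to 1918 CPM in KO and 1852 to 2372 CPM in WT. Psme1 and Psme2, which interferon also induces, had the values given above. Of the 13 macrophage markers, 3 were called lower. The part of immune cells in the level of Psmb8, Psmb9 and Psmb10 was not tested.

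Outside the complex, 35 genes of its pathway were listed for the proteasome's remaining subunits, shuttle receptors and deubiquitinases, the ubiquitin supply, the p97 unfoldase and the control of NRF1. Of these, 24 had a positive log2 fold change, with a median of 0.10, and 2 were called, both higher in KO (5.71%, against 1.15%). Usp14, the deubiquitinase bound to the cap, was at 44.1, 45.5, 48.0, 45.4, 48.9 and 45.3 CPM in KO and at 43.1, 36.7, 40.7, 33.7, 36.6 and 39.2 CPM in WT, without overlap. It rose by a log2 fold change of 0.27 ± 0.06 (edgeR adjusted p = 0.0414), and the authors' deposited table gave 0.28 with an adjusted p of 0.00704. The other listed gene called higher in the authors' table was Ubqln1, at 0.24 with an adjusted p of 0.0467. There, 2.6% of all genes were called higher in KO. Here Ubqln1 was at 0.23 ± 0.08 (edgeR adjusted p = 0.110).

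Txnl1, a thioredoxin-like protein that binds the cap, was at 95.2, 100.2, 89.1, 95.9, 101.5 and 91.5 CPM in KO and at 82.5, 72.5, 85.6, 70.5, 64.5 and 85.7 CPM in WT, without overlap. It rose by 0.31 ± 0.08 (edgeR adjusted p = 0.0464). The authors' deposited table gave Txnl1 0.32 with an adjusted p of 0.0518, over the threshold, and DESeq2 run here gave an adjusted p of 0.00608. Usp14 and Txnl1 were the 2 of 35 listed genes with every KO library above every WT library (5.71%, against 1.29% of all genes). Both calls were lost when most single libraries were left out, with an adjusted p of 0.0502 to 0.103 for Usp14 (without any KO library or WT 2, 3, 4 or 5) and of 0.0554 to 0.122 for Txnl1 (without any KO library or WT 1, 2, 4 or 5). With WT 4 and WT 5 both left out, it was 0.243 for both genes. By group, the number with an unadjusted p under 0.05 and higher in KO was 1 of 5 for subunits and assembly, 4 of 11 for receptors and deubiquitinases, 1 of 6 for ubiquitin supply, 3 of 6 for p97 and its cofactors, and 0 of 7 for the control of NRF1, against 10.7% of all genes. In the other direction there were 2 of the 35, against 10.6% of all genes: Mafg, given below, and Zfand5, a proteasome-binding zinc finger protein, at -0.20 ± 0.08 (edgeR adjusted p = 0.168).

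The NRF1 group had a median of -0.08 and no called gene, against 2.64% of all genes. Nfe2l1, which encodes NRF1, was at -0.17 ± 0.09 (edgeR adjusted p = 0.297), and Ddi2, the protease that releases it, at -0.13 ± 0.07 (edgeR adjusted p = 0.269). Mafg, a small Maf partner of NRF1, was at 105.5, 108.0, 117.1, 105.4, 119.2 and 89.4 CPM in KO and at 138.9, 145.7, 128.4, 150.3, 150.3 and 107.2 CPM in WT. WT 6 lay within the KO values and the other 5 WT libraries above them all. Its log2 fold change was -0.35 ± 0.09 (edgeR adjusted p = 0.0616), and the authors' deposited table gave -0.34 with an adjusted p of 0.0333, where 2.98% of all genes were called lower there.

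Per kilobase of exon, the core and cap genes had unequal RNA levels. In the core, Psma6 was highest at 73.0 ± 3.77 CPM per kb in KO and 68.9 ± 3.32 in WT, followed by Psmb4 at 60.3 ± 2.76 and 54.9 ± 5.51 (SD, n = 6). The lowest were Psma8 at 0.530 ± 0.167 and 0.168 ± 0.0847 CPM per kb and Psma2 at 19.1 ± 0.830 and 16.5 ± 1.58. In the cap, Psmc1 was highest at 59.7 ± 2.42 CPM per kb in KO and 56.8 ± 6.28 in WT, followed by Psmc5 at 54.8 ± 4.10 and 46.1 ± 4.14. Psmd1 was lowest, at 14.7 ± 0.648 and 12.5 ± 1.79, next to Psmd14 at 18.1 ± 0.950 and 14.5 ± 2.28. The chaperones were rarer, with means over all libraries of 1.98 to 13.5 CPM per kb. Lengths were the union of all annotated exons of a gene, which can exceed the transcript present in liver.

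**Figure D5:**
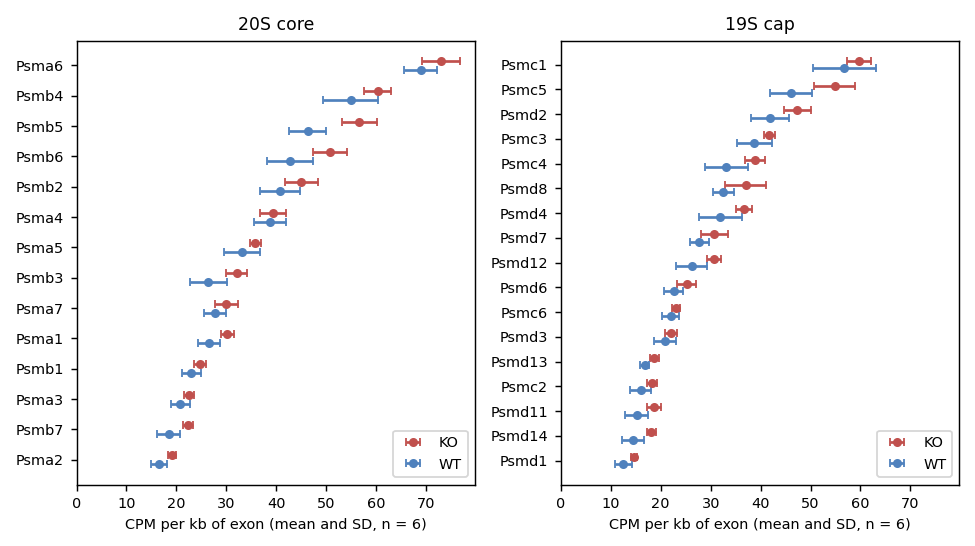
CPM per kb of exon (x axis, from 0) of the core genes other than Psma8 (left) and the cap genes (right), ordered by mean level, in KO (red) and WT (blue), as mean and SD of 6 libraries. Levels run from 19.1 (Psma2) to 73.0 (Psma6) CPM per kb in the core of KO liver and from 14.7 (Psmd1) to 59.7 (Psmc1) in the cap, and the KO mean lies to the right of the WT mean for each gene.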

How the data were processed

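For each of 12 liver libraries, the authors deposited unnormalized counts of reads on each gene, as whole numbers. It also held the authors' own log2 fold change and adjusted p-value per gene, per the file headers. The tools behind them were, per the submitters' processing notes and without versions, FastQC, Trimmomatic, HISAT2, SAMtools, featureCounts and DESeq2, on GRCm38. Groups came from the sample titles. The first row of each Ensembl gene was kept (204 repeated rows with equal counts were left out), giving 15140 genes, of which filterByExpr kept 15000. Annotated overlaps and exon lengths came from GENCODE M21, which held 15127 of the genes, and promoters from RefSeq (GRCm38.p6).

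KO was compared with WT over all genes with edgeR 4.0.16 (TMM, robust quasi-likelihood F test, Benjamini-Hochberg, threshold 0.05, R 4.3.3). A standard error is the log2 fold change divided by the square root of F, and a 95% interval uses the test's degrees of freedom. CPM were scaled by TMM, with factors of 0.953 to 1.09. Alternatives were DESeq2 1.42.0, limma-voom 3.58.1, other scalings and filters, a replicate block and leaving out libraries. On simulated counts of this comparison (14953 genes tested), 14% of genes planted at 1.2-fold, 46% at 1.5-fold, 90% at 2-fold and 96% at 4-fold were recovered, and 4.65% of calls were unchanged genes. Compared within groups, the 30 library pairs differed by 38.5 to 245 chi-square units per degree of freedom, so no library was a copy of another.

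The members and gene lists were chosen with earlier results of these data known. Values were given for members past the threshold, the 2 members with the smallest p in each of the 4 role groups, the catalytic genes, Psme1 and Psme2, listed pathway genes past the threshold or among the 3 with the smallest p, and the 2 highest and 2 lowest levels of core and cap. Other genes are named as extremes of their group, after their values were seen, as were Psmd13, Nfe2l1, Ddi2 and Ubqln1.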

Additional observations from a re-analysis of the deposited data

Results flagged for a closer look

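In 2 of 106 groups of 6 libraries examined, 1 library stood apart from the other 5 by Dixon's criterion, where chance gives about 5.3. Psmd9, a base chaperone gene, was highest in WT 2, at 40.4 CPM against 34.2 to 36.1 CPM in the other WT libraries, a gap of 0.686 of the group's log2 range. Psmb2, a structural beta gene, was lowest in KO 1, at 46.3 CPM against 54.7 to 57.7 CPM in the other KO libraries, a gap of 0.755 of the range.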

How the results depend on the processing

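The core and cap medians were positive under every alternative run: 0.13 to 0.15 and 0.17 to 0.19 with other tools, scalings and filters and the block. Leaving out 1 library gave 0.11 to 0.19 and 0.15 to 0.22, and leaving out WT 4 and WT 5 together gave 0.08 and 0.12. Counts of called genes were less stable. DESeq2 called 1232 genes in all, 5 of the core, 2 of the cap and 6 of the pathway genes. Total-count scaling called 257, with 1 of the core and 0 of the pathway, and a minimum of 1 CPM in 6 libraries left 1 of the core. Leaving out 1 library gave 25 (without WT 4) to 700 genes (without WT 6), among them 46 without WT 2, 86 without KO 6, 89 without WT 5 and 235 without KO 2, and 0 to 3 of the core, 0 to 2 of the cap, 0 to 3 of the pathway and 0 to 1 of the immunoproteasome. Leaving out WT 4 and WT 5 left 6 genes, and 0 of the core, the pathway and the immunoproteasome. Chaperone, activator and inhibitor genes were never called. Psma8 kept its call except without KO 6, WT 2 or WT 4, without WT 4 and WT 5 together (adjusted p = 0.103), or where it was not tested. Psmb5 lost its call with total counts (adjusted p = 0.0522) and in 9 of 12 leave-outs, where its adjusted p was 0.0551 to 0.0896.

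Whether same-numbered libraries deviated together gave a mixed answer (correlations of -0.190 to 0.358, 3 of 6 over 0.1, own number best for 3 KO and 2 WT). Numbers 2 (0.358) and 4 (0.205) were best matches in both directions, and number 5 was lowest (-0.190). The labels do not say what the numbers mark, so the numbers are not shown to pair the libraries. With the replicate block, 374 genes were called, among them 1 of the core (Psma8), 1 of the pathway (Mafg, lower in KO, adjusted p = 0.0397) and 0 of the immunoproteasome. Adjusted p values were then 0.0592 for Psmb5, 0.0586 for Psmb10, 0.0696 for Usp14 and 0.0872 for Txnl1, whose calls were lost.

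Signs turned for 8 genes with a log2 fold change near 0 and for Psmc3ip. Leaving out 1 library gave -0.020 to 0.046 for Psma4, -0.048 to 0.044 for Psme4, -0.085 to 0.013 for Psmd9, -0.012 to 0.067 for Psmf1, -0.035 to 0.058 for Psmg1, -0.024 to 0.14 for Psmg2, -0.11 to 0.023 for Psmg3 and -0.0045 to 0.10 for Psmg4. Leaving out WT 4 and WT 5 gave -0.052 for Psma4, -0.051 for Psmg1 and -0.061 for Psmg2. Psmc3ip, at 0.31 with a standard error of 0.41, was at -0.0039 with limma-voom. The cause of each change was not tested. Of genes planted at 1.2-fold, close to the differences seen here, 14% were recovered on simulated counts. The planted genes were drawn from all genes at 1 CPM or more, and genes were simulated independently. The core and cap genes other than Psma8 had means of 45.6 to 180 CPM and moved together, so 14% is not their own recovery rate. A single subunit gene that missed the threshold is not shown to be equal in the groups.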
